A study of Homo sapiens with 3 samples.

Results

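The genes of the FOXA family, FOXA1, FOXA2 and FOXA3, were examined as targets of FOXA2 itself, by the FOXA2 peaks that lay around them in Caco2 cells. Members were the peaks whose midpoint fell in the hg19 interval of each gene with 100 kb on each side, which is 207 kb on chromosome 14 for FOXA1, 205 kb on chromosome 20 for FOXA2 and 211 kb on chromosome 19 for FOXA3. The intervals held 31 of the 63949 peaks of replicate 1 and 14 of the 26907 peaks of replicate 2, and 12 sites were found in both lists. Caco2 is an established human colorectal adenocarcinoma line widely grown to study intestinal epithelial cells, and the cells carried no labelled treatment or genetic change. The series comprised 2 replicate chromatin immunoprecipitations with a FOXA2 antibody (Santa-Cruz sc-6554) and 1 input library without antibody, which entered only through the peak calling. A single cell line and condition were measured, with no sample that lacks FOXA2, so the data give positions and strengths of sites and no response of the genes.

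FOXA proteins are forkhead transcription factors, formerly named hepatocyte nuclear factors 3 alpha, beta and gamma, that bind DNA through a winged-helix domain and can open compacted chromatin ahead of other factors. FOXA1 and FOXA2 act in the formation of endoderm-derived organs, gut, liver, pancreas and lung among them, and FOXA3 is known from liver and gut. In the mouse, Foxa2 is known to act on its own gene and on Foxa1, so the sites around each gene bear on self-regulation at FOXA2 and cross-regulation at FOXA1 and FOXA3. The DNA-binding domain is closely alike in the 3 proteins, and the labels do not say whether the antibody distinguishes them.

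The promoters of FOXA1 and FOXA3 are printed because a promoter sequence was available for these 2 genes and not for FOXA2. The FOXA1 promoter lay at a gene end with a FOXA2 peak in both replicates, and the FOXA3 promoter at a gene end with none. FOXA2 also had a peak in both replicates at its start, described below. Each printed promoter is the RefSeq window of 250 bases before to 50 bases after the start of the gene, written 5′ to 3′ on the strand of the gene. They are on GRCh38.p14, whereas all peaks are on hg19, and no position was carried from one build to the other. FOXA1 lies on the minus strand (chr14:37595200-37595499) and FOXA3 on the plus strand (chr19:45864076-45864375). Capitals mark a forkhead core motif, TGTTTGC, which reads GCAAACA on the other strand.
FOXA1: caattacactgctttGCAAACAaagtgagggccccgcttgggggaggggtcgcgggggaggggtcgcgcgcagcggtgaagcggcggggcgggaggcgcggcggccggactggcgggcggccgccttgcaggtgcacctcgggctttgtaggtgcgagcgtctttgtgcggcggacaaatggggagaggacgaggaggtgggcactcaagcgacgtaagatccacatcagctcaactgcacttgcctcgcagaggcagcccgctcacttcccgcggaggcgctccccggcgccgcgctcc
FOXA3: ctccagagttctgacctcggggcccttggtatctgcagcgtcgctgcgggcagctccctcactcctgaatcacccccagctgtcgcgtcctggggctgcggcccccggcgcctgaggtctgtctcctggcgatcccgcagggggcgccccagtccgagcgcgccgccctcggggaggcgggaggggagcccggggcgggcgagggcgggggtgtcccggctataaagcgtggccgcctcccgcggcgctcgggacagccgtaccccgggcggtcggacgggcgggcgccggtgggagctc

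The FOXA1 window held TGTTTGC once, at bases 16 to 22 of the window, and the FOXA3 window did not hold it. This motif was chosen after the sequences were seen, and 3.89% of the 35116 RefSeq promoter windows hold it on either strand. The classical core TGTTTAC was in neither window (3.42% of all windows hold it), nor was its looser form TNTTTAC (10.8%), which includes the first. Both windows were rich in G and C, with 69.3% for FOXA1 and 76.3% for FOXA3, against a median of 58.7% over all windows. These matches describe the letters of the windows and do not place a binding site.

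FOXA2 peaks lay around all 3 genes, but in different numbers and at different distances. The FOXA2 interval held 15 peaks in replicate 1 and 7 in replicate 2, of which 6 sites were shared. The FOXA1 interval held 12 and 6, with 5 shared, and the FOXA3 interval held 4 and 1, with 1 shared. A site counted as shared when a replicate 1 peak and a replicate 2 peak had at least 1 bp in common, and it is given at its replicate 1 position. The score of a peak is the authors' tag count scaled to 10000000 tags per library, called normalised tags here, and it was compared between replicates as a mean ± SD with n = 2. Replicate 1 held 26183147 tags and replicate 2 held 15756702, so a score unit stands for 2.62 and 1.58 tags.

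**Figure D1:**
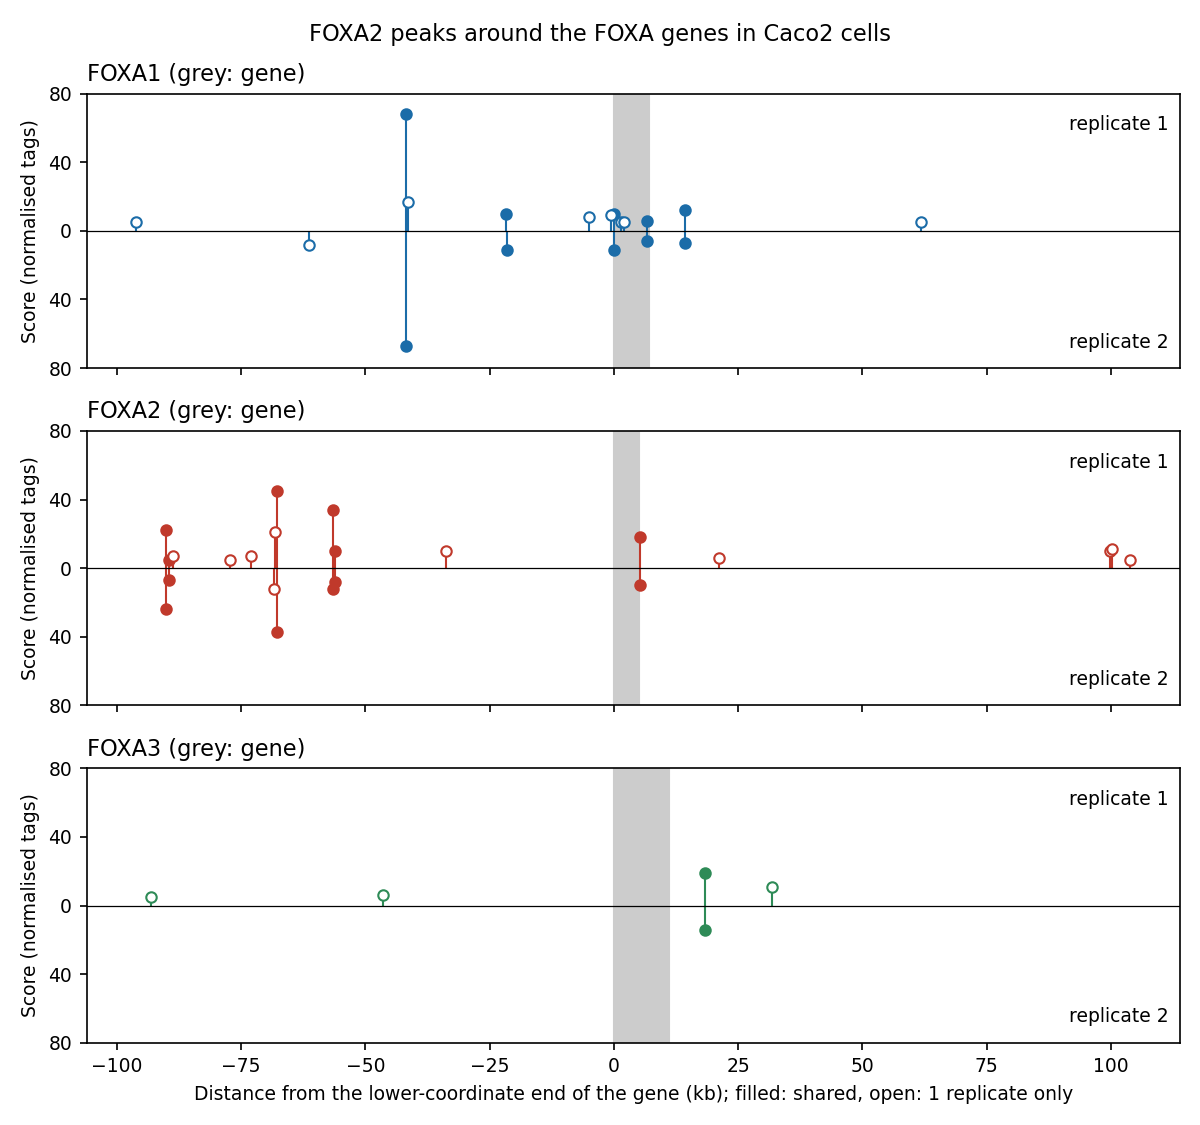
FOXA2 peaks in the intervals of FOXA1, FOXA2 and FOXA3, by distance in kb from the lower-coordinate end of the gene (x axis), with the score in normalised tags upwards for replicate 1 and downwards for replicate 2 (y axis). Filled points are sites shared by the replicates, open points were found in 1 replicate, and the grey band is the gene. The highest point is the site 41.8 kb below FOXA1, with 68 and 67 normalised tags, and the FOXA3 panel holds a single shared site.

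At FOXA2, the gene of the immunoprecipitated factor, the strongest sites were distant from the gene and a site of middling score lay at its start. FOXA2 is transcribed towards lower coordinates, so its start is the upper end of the gene, which the interval gives in whole kb. The site at this end, chr20:22566113-22566235, had its midpoint 0.2 kb beyond it. It scored 18 in replicate 1 and 10 in replicate 2 (14 ± 5.66, SD, n = 2), or 47.1 and 15.8 tags. In replicate 1 this was 2.25 times the median peak and in replicate 2 it was 0.909 times, so the replicates placed it on different sides of the middle of their lists. Of all replicate 1 peaks that scored 18, 79.8% were shared. No other peak of either replicate lay within 10 kb of the gene.

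The other 5 shared sites of the FOXA2 interval all lay on the lower-coordinate side, which is beyond the 3′ end of the gene, between 56.1 and 90.2 kb away. The strongest, chr20:22493171-22493293, lay 67.8 kb from the gene and scored 45 in replicate 1 and 37 in replicate 2 (41 ± 5.66, SD, n = 2), higher than 95.3% and 89.3% of the peaks of the lists. It had a companion in each list that did not count as shared. The replicate 1 companion, chr20:22492765-22492887 with 21 normalised tags, was 406 bp from the strong peak, and the replicate 2 companion, chr20:22492607-22492757 with 12, was 511 bp from it. Their midpoints were 144 bp apart and the peaks did not touch. With midpoints allowed to differ by up to 500 bp, the companion counted as shared too, which gave 7 sites.

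The site nearest to FOXA2 among these 5 was one of a close pair. The pair comprised chr20:22504415-22504537 and chr20:22504814-22504936, with midpoints 399 bp apart in replicate 1 and 419 bp apart in replicate 2. The first scored 34 in replicate 1 and 12 in replicate 2 (23 ± 15.6, SD, n = 2), the widest spread of the 12 shared sites. The ratio of replicate 1 to replicate 2 was 2.83 (95% exact binomial interval from approximate tags, 1.70 to 4.90), the only one of the 12 whose interval left out 1. The second scored 10 and 8 (9 ± 1.41). Both replicates thus placed a stronger and a weaker peak in the same order, though by unequal amounts.

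The outermost shared pair, 90.2 and 89.5 kb from FOXA2, had the same shape. The site chr20:22470771-22470893 scored 22 in replicate 1 and 24 in replicate 2 (23 ± 1.41, SD, n = 2). Its neighbour chr20:22471487-22471609 scored 5 and 7 (6 ± 1.41), near the bottom of both lists, with 8.19% and 8.46% of peaks below it. Only 7.13% of all replicate 1 peaks that scored 5 were shared, so this neighbour is among the few at that score found in both lists. Another peak 745 bp further on, with 7 normalised tags, was found in replicate 1 alone.

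The peaks of the FOXA2 interval found in replicate 1 alone numbered 9. On the lower side these were the companion with 21 normalised tags and 4 peaks of 5 to 10. The remaining 4 lay on the upper side, beyond the start of the gene, and scored 5 to 11. Among them a pair at chr20:22660807-22660929 and chr20:22661082-22661204 scored 10 and 11 with midpoints 275 bp apart. That distance is under the 300 bp that peaks of replicate 2 needed to be called separately, a limit on separate calls only. Replicate 2 had no peak there, neither separate nor joint, and its nearest midpoint was 22710 bp away. Why it had none was not tested. Of the summed score of the interval, 76.9% in replicate 1 and 90.9% in replicate 2 lay on the lower side. In RefSeq (GRCh38.p14) FOXA2 is flanked by the long noncoding RNA genes LINC00261 on the lower side and LNCNEF on the upper side. Which of the hg19 peaks fall within these neighbours was not analysed here.

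At FOXA1 the shared sites were a single strong distant one and others of lower score, 3 of which lay within 10 kb of the gene. The strong site, chr14:38016188-38016310, lay 41.8 kb below the lower end of the gene. FOXA1 is on the minus strand in RefSeq, so this is beyond its 3′ end. It scored 68 in replicate 1 and 67 in replicate 2 (67.5 ± 0.707, SD, n = 2), or 178 and 106 tags. It scored higher than 97.9% of replicate 1 peaks and 96.5% of replicate 2 peaks, and its mean score ranked 1047 among the 24345 shared sites. The replicates differed in ratio by 1.01 (0.790 to 1.30), and their centres by 6 bp. This was the highest score of the 3 intervals in both replicates.

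A second peak lay beside the strong FOXA1 site in replicate 1 alone. This peak, chr14:38016498-38016620, scored 17, or 44.5 tags, with its midpoint 310 bp from the strong one. Among all replicate 1 peaks that scored 17, 79.2% were shared. Its midpoint was 304 bp from the replicate 2 peak at the strong site, close to the 300 bp that replicate 2 peaks needed to be called separately. Whether that limit kept a replicate 2 peak from being called there was not tested.

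The FOXA1 gene and its close surroundings held 7 replicate 1 peaks within 19.3 kb, from chr14:38052958 to chr14:38072300, with scores of 5 to 12, and 3 of them were shared. The first, found in replicate 1 alone, scored 8 and lay 5 kb below the gene. At the upper end, the start of FOXA1, the site chr14:38064641-38064763 scored 6 in each replicate (6 ± 0, SD, n = 2). It fell in the last kb of the gene as the interval bounds it, at the end whose promoter is printed above. It stood for 15.7 tags in replicate 1 and 9.45 in replicate 2, and 27.5% of replicate 1 peaks and 0.193% of replicate 2 peaks scored lower. Of all replicate 1 peaks that scored 6, 12.2% were shared. The start of FOXA1 thus had a peak in both lists, below the median of replicate 1 and among the weakest of replicate 2.

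The lower end of FOXA1 held the site chr14:38057978-38058100, which scored 10 in replicate 1 and 11 in replicate 2 (10.5 ± 0.707, SD, n = 2), with a replicate 1 peak of 9 normalised tags 529 bp below it. Within the gene lay a pair of replicate 1 peaks of 5 each, 481 bp apart, that were not in replicate 2. On the upper side, 7.2 kb beyond the start of the gene, chr14:38072178-38072300 scored 12 and 7 (9.5 ± 3.54). The fifth shared site, chr14:38036325-38036447, lay 21.6 kb below the gene and repeated the scores of 10 and 11. Its centres differed by 57 bp, the largest difference of the 12 sites. All 4 weaker sites had mean scores below 14.5, the median of all shared sites. In replicate 1, those that scored 10 or 12 were above the median peak of the list, which scored 8. In replicate 2, those that scored 11 were at the median of the list and the others below it.

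The rest of the FOXA1 interval was nearly empty. Replicate 1 alone had peaks of 5 normalised tags at 96.1 kb below and 54.7 kb above the gene. Replicate 2 alone had chr14:37996652-37996802, with 8, whose nearest replicate 1 midpoint was 19522 bp away. It was the only replicate 2 peak of the 3 intervals without a replicate 1 peak within 500 bp. In RefSeq the protein-coding neighbours of FOXA1 are MIPOL1 on the lower side and TTC6 on the upper side. Whether the strong site or other hg19 peaks fall within these genes was not analysed here, so sites beyond the 3′ end are not assigned to FOXA1.

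At FOXA3 there was a single shared site, and none at the gene. The site chr19:46385322-46385444 lay 7.4 kb beyond the upper end, which is the 3′ end because FOXA3 is on the plus strand in RefSeq. It scored 19 in replicate 1 and 14 in replicate 2 (16.5 ± 3.54, SD, n = 2), above the median shared site and higher than 56.5% of them. The ratio of replicate 1 to replicate 2 was 1.36 (0.813 to 2.37), and the centres differed by 2 bp, the closest match of the 12 sites. Replicate 1 alone had 3 further peaks, with scores of 11 at 20.9 kb above the gene, 6 at 46.4 kb below it and 5 at 93.1 kb below it.

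Neither replicate had a peak within FOXA3 or within 1 kb of either end. At its start, whose promoter is printed above, the nearest peak of either list on the lower side was 46.4 kb away. The absence of a call means that no peak passed the thresholds at these depths, not that FOXA2 is absent there. In RefSeq FOXA3 is flanked by SYMPK on the lower side and IRF2BP1 on the upper side. Whether the shared site lies nearer to IRF2BP1 than to FOXA3 on hg19 was not analysed here.

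The number of shared sites near each gene depended on how near. Within 10 kb of the gene, FOXA1 had 3 shared sites, FOXA2 had 1 and FOXA3 had 1. Within 50 kb the counts were 5, 1 and 1, and within 100 kb they were 5, 6 and 1. FOXA1 thus had the highest count within 50 kb, where the FOXA2 gene had only the site at its start, and FOXA2 gained its other 5 sites beyond 50 kb. Genome windows of the widths within 10 and 50 kb were not counted, so whether these counts are unusual is not known. The highest-scoring shared sites of the FOXA1 and FOXA2 intervals lay on the 3′ side of the gene, at 41.8 kb and 67.8 kb. The only shared site of FOXA3 was also on the 3′ side, at 7.4 kb. How often this is so around other genes was not counted.

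Set against the whole genome, FOXA1 and FOXA2 lay in the upper part of the range and FOXA3 in its common part. The intervals were compared with all adjoining windows of the same width on 23 chromosomes (1 to 22 and X) that held a peak of either replicate, as a description without a test. As many shared sites as the 5 of FOXA1, or more, were in 14.1% of 11389 windows, and as many as the 6 of FOXA2, or more, in 9.14% of 11473 windows. The single site of FOXA3 was equalled or exceeded in 73.9% of 11232 windows. The median window held 1 shared site, and the fullest held 18, 20 and 22 at the 3 widths. In replicate 1 alone, the 15 peaks of FOXA2 exceeded 94.7% of windows and the 12 of FOXA1 exceeded 88%. The FOXA1 and FOXA2 intervals were thus well filled without being extreme. Caco2 cells carry gains and losses of chromosomes, and the counts were used without adjustment for them.

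**Figure D2:**
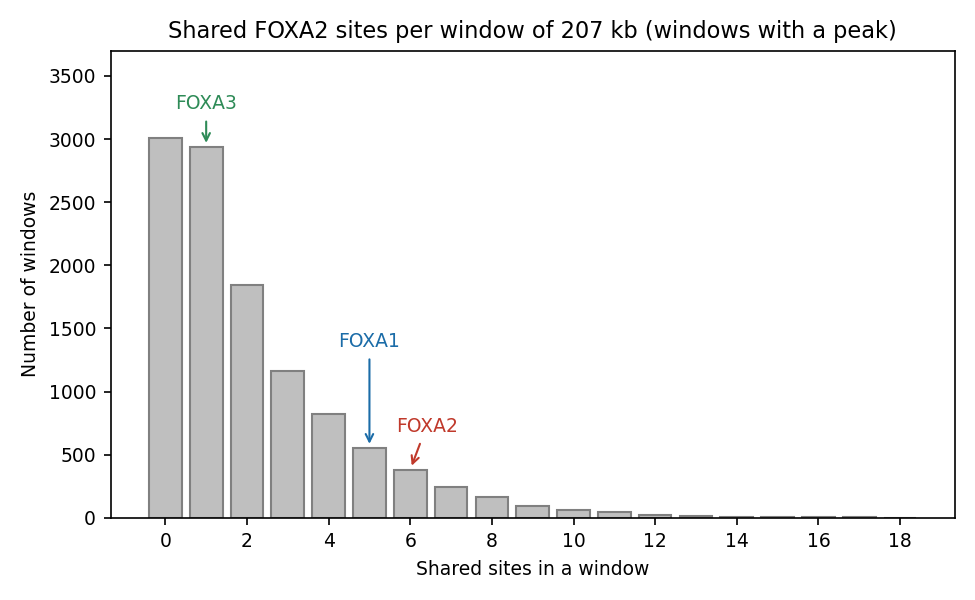
Number of windows of 207 kb (y axis) by the shared FOXA2 sites they hold (x axis), for the 11389 windows with a peak of either replicate. Arrows mark the counts of the FOXA3 interval (1), the FOXA1 interval (5) and the FOXA2 interval (6), whose own widths are 211, 207 and 205 kb.

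Agreement between the replicates at the FOXA genes was close to that of the whole lists. Of the 31 replicate 1 peaks, 12 were shared, or 38.7% (95% Wilson interval 23.7% to 56.2%), against 38.1% of all replicate 1 peaks. Of the 14 replicate 2 peaks, 12 were shared, or 85.7% (60.1% to 96.0%), against 90.5% of all replicate 2 peaks. Both differences were smaller than the counting error. By gene, the shared percentage of replicate 1 peaks was 41.7% at FOXA1 (5 of 12, 19.3% to 68.0%) and 40% at FOXA2 (6 of 15, 19.8% to 64.3%). At FOXA3 it was 25% (1 of 4, 4.56% to 69.9%). Chromosomes 14, 20 and 19 gave 37.1%, 32.1% and 32.1%, each inside the interval of its gene. These intervals and those of ratios cover counting error only, and it is not stated if the replicates are separate cultures, so their differences may be technical.

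Peaks found in replicate 1 alone at the FOXA genes had a median score of 7, against 8 for all replicate 1 peaks. Of 19 such peaks, 9 scored 5 or 6. Over the genome 39604 peaks were found in replicate 1 alone, and low scores were common among them too. At scores of 5 and 6, 881 of 12348 (7.13%) and 742 of 6103 (12.2%) of all replicate 1 peaks were shared. Most peaks of these scores were thus found in replicate 1 alone over the genome too. Their share among all peaks found in replicate 1 alone was not set beside the 9 of 19. At the FOXA genes, 2 of the 19 scored above 11, the companions of the strongest FOXA1 and FOXA2 sites, with 17 and 21 normalised tags. The other 8 scored 7 to 11, a range in which 18.7% to 48.4% of all replicate 1 peaks were shared.

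**Figure D3:**
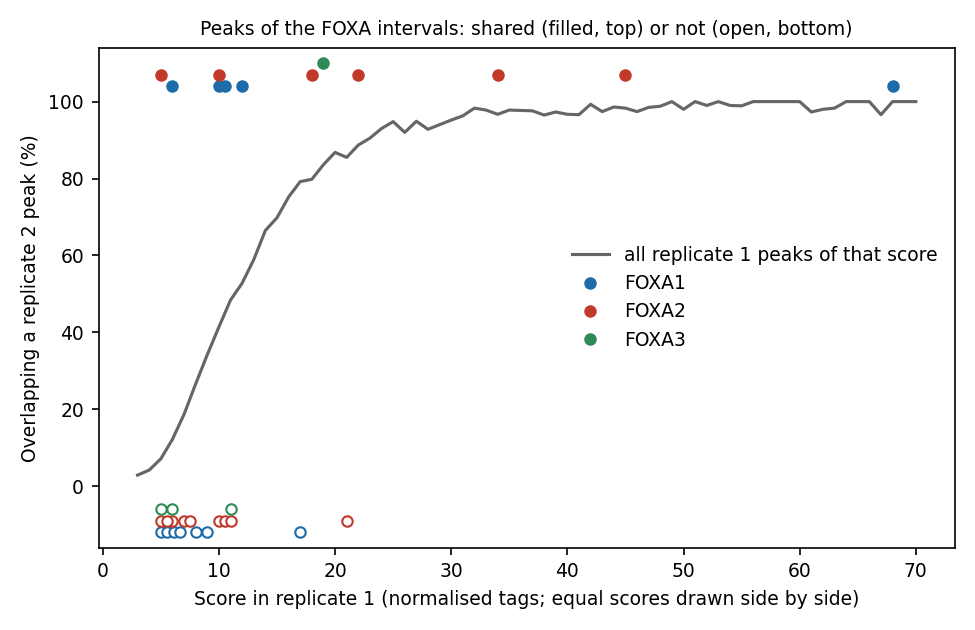
Percentage of replicate 1 peaks that overlapped a replicate 2 peak (y axis) at each score in normalised tags (x axis), for all peaks of that score (line). Points give the scores of the 31 replicate 1 peaks of the FOXA intervals, filled above the line's range where shared and open below it where not, with equal scores drawn side by side. The open points at 17 and 21 are the companions of the strongest FOXA1 and FOXA2 sites.

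Scores at the 12 shared sites were ordinary for shared sites, and at 1 of them the replicates differed beyond counting error. Their median mean score was 12.25, against 14.5 for all 24345 shared sites (interquartile range 9.5 to 24.5), and 5 of the 12 exceeded 14.5. Replicate 1 was higher at 7 sites, lower at 4 and equal at 1. The ratio of replicate 1 to replicate 2 had a median of 1.11, against 1.20 over all shared sites (interquartile range 0.900 to 1.60). For 11 of the 12 sites the interval of the ratio held 1. Some intervals were wide, such as 0.445 to 2.75 at the start of FOXA1, so holding 1 does not show that the replicates agreed. In replicate 1, 3 of the 31 peaks scored above 90% of the list, the strong FOXA1 site and the FOXA2 sites of 45 and 34, against 9.56% of all peaks. In replicate 2, 1 of the 14 did, the FOXA1 site, against 9.83%. High scores were thus no more common at the FOXA genes than in the lists.

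**Figure D4:**
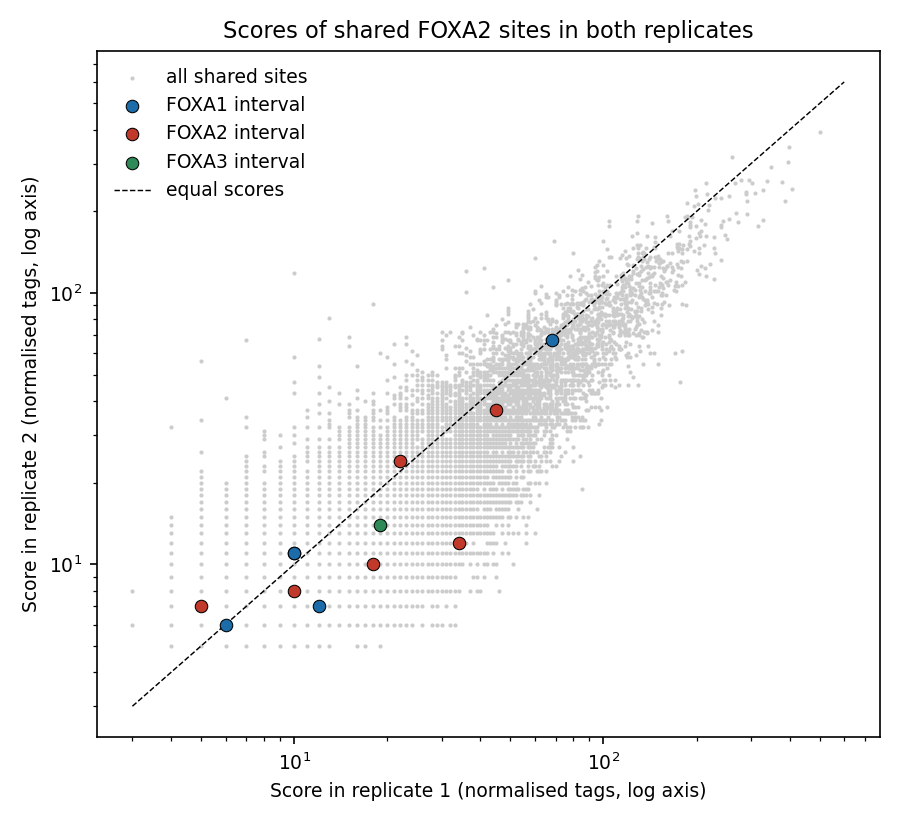
Scores of shared FOXA2 sites in replicate 1 (x axis) and replicate 2 (y axis), in normalised tags on log axes, with all 24345 shared sites in grey and the 12 sites of the FOXA intervals in colour. The dashed line marks equal scores, 2 FOXA1 sites share the point at 10 and 11, and the FOXA2 site farthest below the line scored 34 and 12.

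Close pairs of peaks were frequent at FOXA1 and FOXA2, by a count that was added after the lists were seen. In replicate 1, 15 of the 31 peaks had another peak of the list within 1 kb, or 48.4% (95% Wilson interval 32.0% to 65.2%), against 14.1% of all replicate 1 peaks. These were 6 of 12 at FOXA1, 9 of 15 at FOXA2 and 0 of 4 at FOXA3. In replicate 2, 6 of the 14 peaks did, or 42.9% (21.4% to 67.4%), against 7.53% of all replicate 2 peaks, and all 6 were at FOXA2. Members of a pair count each other, so the Wilson intervals, which take peaks as independent, are too narrow, and no test was made. The FOXA1 and FOXA2 intervals were also dense, since windows of their widths held on average 5.61 and 5.57 replicate 1 peaks. Whether this density accounts for the close pairs was not tested. At FOXA2, each of the 3 groups on the lower side of the gene with a shared site held such a pair in both replicates. At FOXA1, no pair was seen in replicate 2, where each of the pairs of replicate 1 had at most 1 counterpart.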

How the data were processed

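FOXA2 occupancy was measured by ChIP-seq in Caco2 cells. The submitters' processing notes name hg19, Bowtie 1.0.0 and HOMER 1.2. The authors ran HOMER findPeaks (factor style) on each replicate against the input, per the file headers, and required a 4-fold excess both over input and over the local 10000 bp, at a false discovery rate of 0.001. Peak widths are 123 bp in replicate 1 and 151 bp in replicate 2. The deposited score is a whole number, read as the authors' normalised tag count because its sum, turned back into tags, exceeded the header's tags in peaks by 0.45% and 0.196%.

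From these lists, midpoints were assigned to the intervals and overlaps counted with Python 3.11.15, numpy 2.4.6, pandas 2.3.3 and scipy 1.17.1. Overlap counting was checked on a simulated list. Gene ends are known to 1 kb, since no hg19 annotation was used here. Ratio intervals are exact conditional binomial intervals on approximate tags. Every peak of the intervals is accounted for, as the rule for named items asked. RefSeq promoter windows matched 2 of the 3 genes. The intervals and comparisons were chosen with earlier results of these data known, and the count of close pairs was added after the lists were seen. Alternatives were the overlap rule, score limits, flanks, windows and each replicate alone.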

Additional observations from a re-analysis of the deposited data

How the results depend on the processing

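The number of shared sites stayed within 1.5 times in each interval when overlap had to cover 50% of both peaks, or when midpoints could differ by up to 100 or 500 bp. It moved with the score limits and the flanks. With peaks at or above the median score of their list it was 3 at FOXA1 and 3 at FOXA2, and with equally long lists of the 13453 best-scored peaks it was 1 at FOXA1 and 3 at FOXA2, while FOXA3 kept a count of 1 under both. With a flank of 50 kb it was 1 at FOXA2, and with a flank of 200 kb it was 11 at FOXA1, 13 at FOXA2 and 4 at FOXA3. Shorter lists, and narrower or wider intervals, give these changes by construction. Taking 1 replicate at a time, the counts ranged from 6 to 12 at FOXA1, 7 to 15 at FOXA2 and 1 to 4 at FOXA3, replicate 1 giving the higher. The percentage of windows with fewer shared sites was 85.9%, 90.9% and 26.1%. It was 89.0%, 92.9% and 42.3% with all windows, which adds empty ones, and with 1 replicate it ranged from 88.0% to 88.9%, 92.6% to 94.7% and 23.1% to 42.5%. Tiling moved by 50% of a window changed it by less than the spread of the replicates. The strongest site of each interval was the same with 1 replicate, with scores of 67 to 68, 37 to 45 and 14 to 19. Close pairs took 32.3% of the replicate 1 peaks within 500 bp (7.33% of the list), 48.4% within 2 kb (22.4%) and 42.9% in replicate 2. Motifs inside peaks and the other transcription factor genes of the planned list were not run, since they need an hg19 genome or annotation. No paired analysis was possible because the replicates form a single group and the input's own values were not analysed here. The 4 weaker FOXA1 sites rest on 9.45 to 31.4 tags per replicate.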

Other observations

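Beyond the intervals, FOXA2 sites continued on the 3′ sides of FOXA1 and FOXA2. Between 100 and 200 kb from FOXA1 there were 5 shared sites on the lower side and 1 on the upper side. The strongest, chr14:37935963-37936085 at 122 kb below the gene, scored 50 in replicate 1 and 41 in replicate 2 (45.5 ± 6.36, SD, n = 2), higher than 90.4% of shared sites. Next was chr14:37883086-37883208 at 174.9 kb, with 37 and 44 (40.5 ± 4.95). Both exceeded every shared site of the FOXA1 interval except the strong one at 41.8 kb.

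At the same distances FOXA2 had 5 shared sites on the lower side, with mean scores of 9 to 16.5, and 2 on the upper side. The highest of these 7 was on the upper side, chr20:22683811-22683933 at 117.9 kb, with 27 in replicate 1 and 12 in replicate 2 (19.5 ± 10.6, SD, n = 2). None reached the sites of the FOXA2 interval that scored 23 and 41. FOXA3 had 3 shared sites there, 1 below the gene and 2 above it, of which chr19:46534244-46534366 at 156.3 kb scored 22 and 11 (16.5 ± 7.78), the same mean as the site near the gene. These outer sites were picked out after their values were seen, and whether they fall within other genes was not analysed here.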
